A study of Mus musculus with 9 samples.

Results

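The pyruvate dehydrogenase genes described here are 10 of the 24647 gene symbols measured in mouse embryonic fibroblasts, the connective tissue cells grown from mouse embryos. They are 4 kinases (Pdk1, Pdk2, Pdk3 and Pdk4), 2 phosphatases (Pdp1 and Pdp2) and 4 subunits of the complex (Pdha1, Pdhb, Dlat and Dld). A member was taken where its symbol in the authors' deposited table equalled one of these names, and where a symbol had several transcript clusters, the brightest was chosen by its mean level across the 9 arrays. A transcript cluster is the group of array probes that reads 1 gene. Pdk1 had 2 clusters, with means of 6.26 and 2.55, and the dimmer one lay below the 25th percentile on all 9 arrays. The other members had 1 cluster each, so 11 clusters carried the 10 names. That choice used the mean over all arrays and no difference between groups.

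Pyruvate dehydrogenase is the mitochondrial complex that turns pyruvate, the end product of glycolysis, into acetyl-CoA for the citric acid cycle. Pyruvate dehydrogenase kinases phosphorylate its first enzyme and switch it off, and pyruvate dehydrogenase phosphatases remove the phosphate and switch it on again. Fibroblasts in culture send much of their pyruvate to lactate, and the kinases set part of that balance. Transcription of Pdk4 is known to respond to fasting, glucocorticoids, PPAR and FOXO factors, and transcription of Pdk1 to hypoxia through HIF1.

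Expression was read on 9 arrays, 3 for each of 3 cell lines named human APE1, mouse Ape1 and vector control. APE1 is a DNA repair endonuclease and a redox regulator of transcription factors, and the series asked how its human and mouse forms affect groups of genes such as those of glycolysis. All 3 lines are male, isogenic to C56BL/6, of the genotype mApe1-/- with a human APE1 transgene, and are described as having very little Ape1. The vector control line therefore carries the human transgene too and is no line free of human APE1. Cells were harvested during growth, at 10% serum in the medium and from dishes of 60 mm. The sources used here do not give how the 3 lines were made. Each group was 1 line in 3 dishes, so a p-value measures the spread between dishes, and an effect of the protein and a difference of the line cannot be told apart. With RNA from whole dishes, a lower level in every cell and fewer cells that express a gene cannot be told apart either.

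Values are log2 expression levels after RMA (robust multi-array average), so a difference of 1 is a doubling. Array medians lay between 5.64 and 5.75. Over all clusters, the 9 pairs of arrays within a line had r = 0.990 to 0.993, and the 27 pairs from different lines r = 0.977 to 0.987. Of 12 fibroblast markers, 9 were above the array median on all human APE1 arrays, 10 on mouse Ape1 and 9 on vector control arrays, among them Col1a1, Vim and Fn1. Lum averaged 3.06 in human APE1, 3.03 in mouse Ape1 and 3.09 in vector control, below the arrays' 25th percentiles of 4.27 to 4.36, and Postn was below them in human APE1 and vector control. The mean of the 12 fibroblast markers per array was 8.51 to 8.57 in human APE1, 8.80 to 8.83 in mouse Ape1 and higher, up to 9.07, in vector control. Col1a1, S100a4 and Pdgfra were among the 6 of these markers that fell in each of the human APE1 and mouse Ape1 lines against vector control, where 0 and 3 others rose. Of genes brighter than the median cluster, 15.4% and 16.7% fell in these comparisons, and 11.4% and 16.5% rose. In mouse Ape1, 4 markers rose and 4 fell with chromosome medians subtracted, and 1 rose and 6 fell with array medians subtracted. The 7 epithelial markers averaged 5.60 to 5.67, 5.57 to 5.63 and 5.61 to 5.72 per array in human APE1, mouse Ape1 and vector control, and 0 of them passed in any comparison (limma; 0 also in the F-test). Of the 6 endothelial, 6 macrophage, 6 muscle and 6 adipocyte markers, at most 1 of each list passed in a comparison. Cd14 of the macrophage list fell by 0.66 in human APE1 and by 0.94 in mouse Ape1 against vector control, while Ptprc, the pan-leukocyte marker, averaged 3.47 in human APE1 and 3.57 in vector control. Lpl of the adipocyte list was lower in human APE1, by −0.76 against vector control and −1.01 against mouse Ape1. Mouse Ape1 differed from vector control by −0.88 in Des (desmin), of the muscle list, and by 0.32 in Cdh5, of the endothelial list. The part of these marker differences in the results on the members was not tested.

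The 5 promoters below belong to the genes on which the results turn, the kinases Pdk4 and Pdk1 and the subunits Pdha1, Pdhb and Dlat. Each is 300 bases of RefSeq sequence, 250 before and 50 after the start of transcription, in the build GRCm38.p6. Capitals mark matches on either strand to a hypoxia response core (ACGTG or GCGTG) or an Sp1 box (GGGCGG). Pdk4 lies at chr6:5496229-5496528 on the minus strand, Pdk1 at chr2:71872974-71873273 on the plus strand, Pdha1 at chrX:160138381-160138680, Pdhb at chr14:8172943-8173242 and Dlat at chr9:50659731-50660030, all 3 on the minus strand.
Pdk4: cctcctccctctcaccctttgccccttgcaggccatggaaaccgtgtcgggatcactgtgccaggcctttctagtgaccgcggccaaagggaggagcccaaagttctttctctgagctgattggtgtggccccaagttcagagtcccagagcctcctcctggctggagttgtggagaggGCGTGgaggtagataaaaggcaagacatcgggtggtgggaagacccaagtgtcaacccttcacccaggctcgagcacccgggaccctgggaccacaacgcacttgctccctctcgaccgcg
Pdk1: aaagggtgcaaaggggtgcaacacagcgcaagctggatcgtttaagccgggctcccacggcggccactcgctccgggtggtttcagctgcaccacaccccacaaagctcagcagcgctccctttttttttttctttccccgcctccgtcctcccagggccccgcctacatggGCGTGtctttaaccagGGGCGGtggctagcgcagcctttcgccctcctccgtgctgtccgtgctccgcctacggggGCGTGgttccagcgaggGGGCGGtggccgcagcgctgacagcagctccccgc
Pdha1: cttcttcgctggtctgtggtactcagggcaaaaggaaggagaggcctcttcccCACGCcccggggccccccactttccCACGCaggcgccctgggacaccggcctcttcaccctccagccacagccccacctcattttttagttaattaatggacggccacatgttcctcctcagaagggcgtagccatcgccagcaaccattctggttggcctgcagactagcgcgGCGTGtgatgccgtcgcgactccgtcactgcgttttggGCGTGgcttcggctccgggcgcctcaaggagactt
Pdhb: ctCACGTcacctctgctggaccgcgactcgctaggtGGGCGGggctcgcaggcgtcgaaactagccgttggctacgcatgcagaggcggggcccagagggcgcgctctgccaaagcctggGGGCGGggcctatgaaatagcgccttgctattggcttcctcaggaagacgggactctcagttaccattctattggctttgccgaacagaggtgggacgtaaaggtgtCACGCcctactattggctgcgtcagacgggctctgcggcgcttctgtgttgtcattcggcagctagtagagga
Dlat: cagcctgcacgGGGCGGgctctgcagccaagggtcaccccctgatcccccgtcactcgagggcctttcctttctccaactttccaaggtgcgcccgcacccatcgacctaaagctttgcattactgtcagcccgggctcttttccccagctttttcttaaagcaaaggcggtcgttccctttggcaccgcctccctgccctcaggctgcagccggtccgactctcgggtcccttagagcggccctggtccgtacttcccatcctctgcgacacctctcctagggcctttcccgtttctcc

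The Pdk4 promoter held 1 GCGTG, that of Pdk1 2 GCGTG and 2 GGGCGG, that of Pdha1 4 GCGTG, that of Pdhb 1 ACGTG, 1 GCGTG and 2 GGGCGG, and that of Dlat 1 GGGCGG. Of all 32851 promoters of this length, 32.4% held GCGTG, 19.6% ACGTG and 35.7% GGGCGG. Table entries existed for 9 of the 10 members, with a second start for Pdk1 and Pdk2, and Pdp1 had none. The second Pdk1 start held none of the motifs. A further 4 motifs were searched on both strands: an AP-1 site (TGANTCA, in 7.81% of all promoters), a FOXO site (GTAAACA, 3.65%), an ERR site (TCAAGGTCA, 0.423%) and an ETS site (CCGGAAG, 8.86%). None of these 4 was found in the members' windows. The GC content of the members' windows ran from 40.3% at the second Pdk1 start to 68% for Pdk3, beside a median of 52.7% over all promoters.

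Pdk4, the kinase best known for its rise in fasted muscle and liver, differed most among the members. Its levels were 11.32, 11.42 and 11.54 in human APE1, 9.47, 9.55 and 9.38 in mouse Ape1, and 10.37, 10.40 and 10.35 in vector control. The 3 lines did not overlap: human APE1 was highest, vector control lay in between and mouse Ape1 was lowest. Pdk4 rose in human APE1 by a log2 difference of 1.05 ± 0.07 (SE, 3 arrays a group), or 2.07-fold, against vector control (limma, adjusted p = 0.000108). In mouse Ape1 it fell by 0.91 ± 0.07, a level 1.88-fold lower than in vector control (limma, adjusted p = 0.000159). Between the lines, human APE1 exceeded mouse Ape1 by 1.96 on the log2 scale (95% interval 1.79 to 2.13), or 3.89-fold (limma, adjusted p = 5.37e-06). That difference ranked 96 by size among the 41345 transcript clusters. Because Pdk4 moved in opposite directions in the 2 lines relative to 1 shared control, the direct comparison of the 2 lines is the test of that contrast. The authors' deposited table lists Pdk4 at a ratio of human APE1 to mouse Ape1 of 3.77, and at ratios of vector control to human APE1 of 0.489 and to mouse Ape1 of 1.84.

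Pdk1, the kinase gene known as a hypoxia target, was higher in human APE1 than in either other line. Its levels were 6.52, 6.65 and 6.73 in human APE1, 6.15, 6.07 and 6.16 in mouse Ape1, and 6.04, 6.02 and 5.97 in vector control. All 3 human APE1 arrays lay above the other 6. The mouse Ape1 values also lay above those of vector control, by a smaller margin. Pdk1 rose in human APE1 by a log2 difference of 0.62 ± 0.07 (1.54-fold) against vector control (limma, adjusted p = 0.00091). Against mouse Ape1 it was higher by 0.51 in human APE1, or 1.42-fold (limma, adjusted p = 0.00205). With both Pdk1 clusters averaged, these differences were 0.37 (adjusted p = 0.00877) and 0.27 (adjusted p = 0.0329). The difference of mouse Ape1 from vector control, 0.12 with a 95% interval of −0.04 to 0.28, did not pass (adjusted p = 0.311). The authors' deposited test gave an unadjusted p of 0.00394 for that comparison, and after Benjamini-Hochberg adjustment Pdk1 was called there.

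Pdk2, a kinase expressed in most tissues, had 7.13, 7.23 and 7.50 in human APE1, 6.88, 7.09 and 6.86 in mouse Ape1, and 7.26, 7.57 and 7.31 in vector control. Mouse Ape1 was the low line, and human APE1 overlapped with vector control. Pdk2 fell in mouse Ape1 by a log2 difference of 0.44 ± 0.12, a level 1.35-fold lower than in vector control (limma, adjusted p = 0.0463). This call sits at the threshold: leaving out 1 array at a time gave adjusted p-values of 0.0303 to 0.139, and the F-test over all 3 lines did not pass (adjusted p = 0.0724). Human APE1 differed from vector control by −0.09 (95% interval −0.37 to 0.19, adjusted p = 0.719).

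Pdk3, the kinase gene on the X chromosome, had 9.29, 9.18 and 9.33 in human APE1, 9.35, 9.39 and 9.34 in mouse Ape1, and 9.42, 9.38 and 9.31 in vector control. The 3 means, 9.27, 9.36 and 9.37, lay within 0.10 of each other. None of its 3 differences passed, with 95% intervals of −0.25 to 0.04 for human APE1 and −0.15 to 0.13 for mouse Ape1 against vector control.

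**Figure D1:**
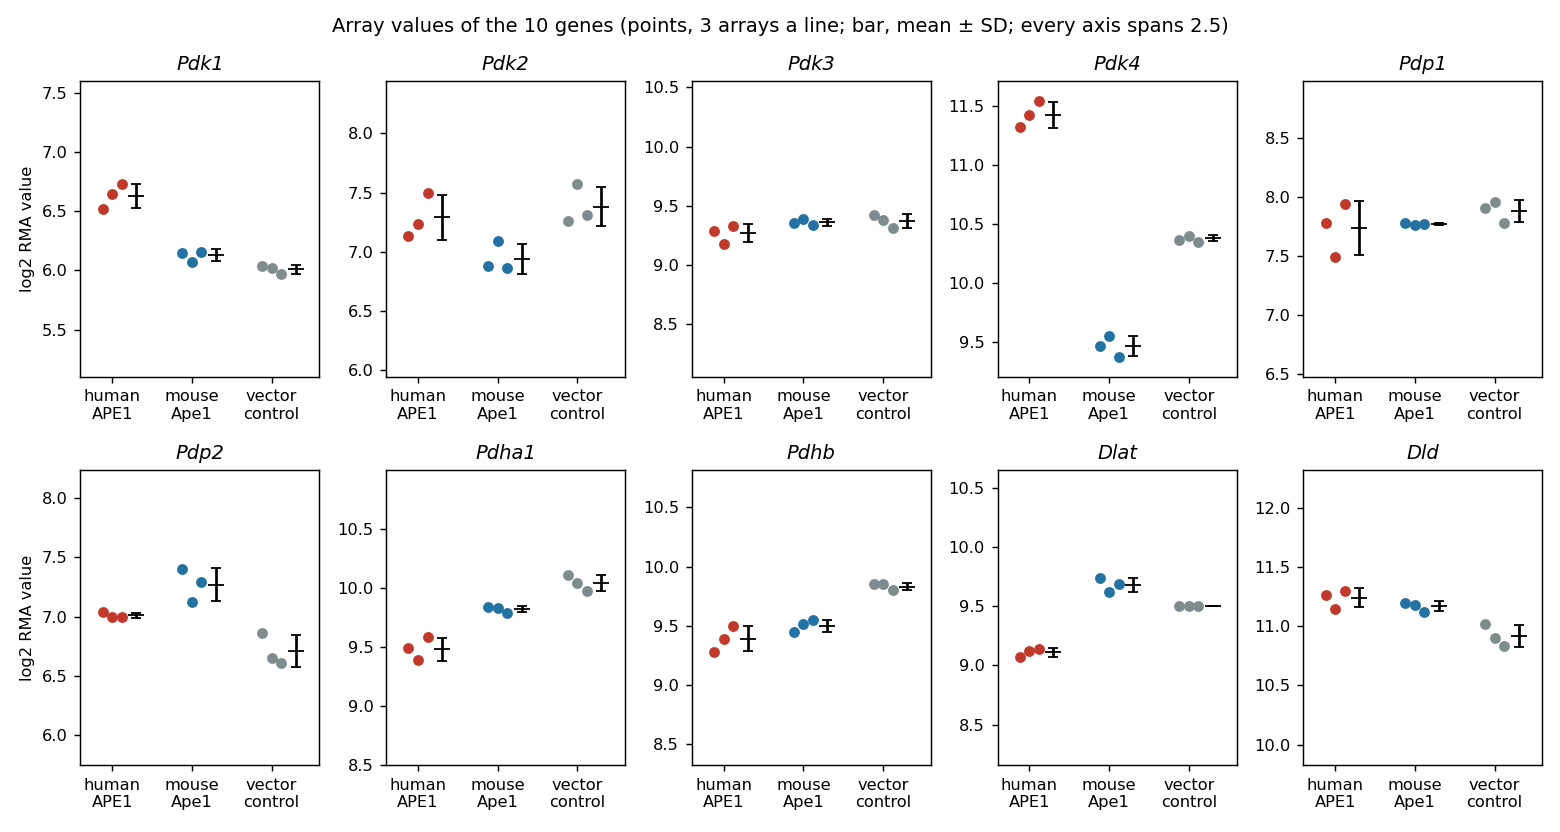
Log2 RMA level of each of the 10 genes on each of the 9 arrays, 1 panel a gene, with the lines on the horizontal axis, a point for each array and, beside the points, the mean ± SD of 3 arrays. The Pdk4 points form 3 separate groups with means of 11.42 in human APE1, 9.47 in mouse Ape1 and 10.38 in vector control. The line means of Pdk3 and of Pdp1 lie close together.

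The plot of levels by array shows the phosphatases beside the kinases. Pdp2, one of the phosphatases that reactivate the complex, had 7.04, 7.00 and 7.00 in human APE1, 7.40, 7.12 and 7.29 in mouse Ape1, and 6.86, 6.65 and 6.61 in vector control. The 3 lines did not overlap, with mouse Ape1 highest and vector control lowest. It rose in mouse Ape1 by a log2 difference of 0.56 ± 0.09, or 1.48-fold (limma, adjusted p = 0.00463). The human APE1 difference of 0.31 (95% interval 0.10 to 0.52) missed the threshold at an adjusted p of 0.0734, and human APE1 and mouse Ape1 differed by −0.26 (adjusted p = 0.128).

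Pdp1, the calcium-sensitive phosphatase, showed no difference that passed. Its levels were 7.78, 7.49 and 7.94 in human APE1, 7.78, 7.76 and 7.77 in mouse Ape1, and 7.91, 7.96 and 7.78 in vector control. The human APE1 arrays spread widest, and their range covered all mouse Ape1 values. The SD of 0.228 in human APE1 was the highest within-group SD of the 10 members, whose median within-group SD was 0.074. Its differences from vector control were −0.15 (95% interval −0.40 to 0.11) in human APE1 and −0.12 (−0.37 to 0.14) in mouse Ape1.

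All 4 subunit genes passed the F-test over the 3 lines, which 20.4% of all clusters and 44.1% of genes brighter than the median cluster passed. Pdha1 encodes the alpha subunit of the first enzyme, the subunit that the kinases phosphorylate, and lies on the X chromosome. It had 9.49, 9.39 and 9.58 in human APE1, 9.84, 9.83 and 9.79 in mouse Ape1, and 10.11, 10.04 and 9.97 in vector control. The lines did not overlap, and their order was human APE1, mouse Ape1 and vector control from low to high. Pdha1 fell in human APE1 by a log2 difference of 0.56 ± 0.07, a level 1.47-fold lower than in vector control (limma, adjusted p = 0.00167). The mouse Ape1 difference of −0.22 (95% interval −0.38 to −0.06) did not pass at an adjusted p of 0.066, but was called in several other settings. Human APE1 was 1.26-fold lower than mouse Ape1 (limma, adjusted p = 0.0144), a call lost with array medians subtracted (adjusted p = 0.0529), without mouse Ape1 replicate 1 (0.0538) and without mouse Ape1 replicate 2 (0.05).

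Pdhb, the beta subunit of the same enzyme, had 9.28, 9.39 and 9.50 in human APE1, 9.45, 9.51 and 9.55 in mouse Ape1, and 9.85, 9.85 and 9.80 in vector control. Vector control was the highest line, and the other two overlapped. Pdhb fell in human APE1 by 0.44 ± 0.07 on the log2 scale, a level 1.36-fold lower (limma, adjusted p = 0.0046). It fell in mouse Ape1 by 0.33 ± 0.07, a level 1.26-fold lower (limma, adjusted p = 0.0127). Without mouse Ape1 replicate 1 this second call had an adjusted p of 0.0517. With chromosome medians subtracted the difference was −0.09 (adjusted p = 0.411). With the shift of its chromosome subtracted, described below, the fall was still called, and the difference less the chromosome's median was −0.21.

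Dlat, which encodes the acetyltransferase core of the complex, was lowest in human APE1. It had 9.07, 9.12 and 9.14 in human APE1, 9.74, 9.62 and 9.69 in mouse Ape1, and 9.50 on all 3 vector control arrays. The lines did not overlap, and mouse Ape1 lay above vector control. The 3 vector control values were identical, and 449 to 586 clusters in each line shared 1 value over its 3 arrays, so their spread is not an independent measure of error. Dlat fell in human APE1 by 0.39 ± 0.05 on the log2 scale, a level 1.31-fold lower than in vector control (limma, adjusted p = 0.00303). The mouse Ape1 difference of 0.19 (95% interval 0.06 to 0.31) had an adjusted p of 0.0538. Human APE1 was 1.49-fold lower than mouse Ape1 (limma, adjusted p = 0.000374).

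Dld encodes the dihydrolipoamide dehydrogenase that this complex shares with other 2-oxoacid dehydrogenases. It had 11.26, 11.15 and 11.30 in human APE1, 11.20, 11.18 and 11.12 in mouse Ape1, and 11.02, 10.90 and 10.83 in vector control. Vector control was the low line, and the other two overlapped. Dld rose in human APE1 by 0.32 ± 0.07 on the log2 scale (1.25-fold, limma, adjusted p = 0.0225), and in mouse Ape1 by 0.25 ± 0.07 (1.19-fold, adjusted p = 0.0488). With array medians subtracted, the adjusted p-values were 0.0968 and 0.204, and leaving out 1 array at a time gave 0.0232 to 0.076 and 0.0384 to 0.143.

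**Figure D2:**
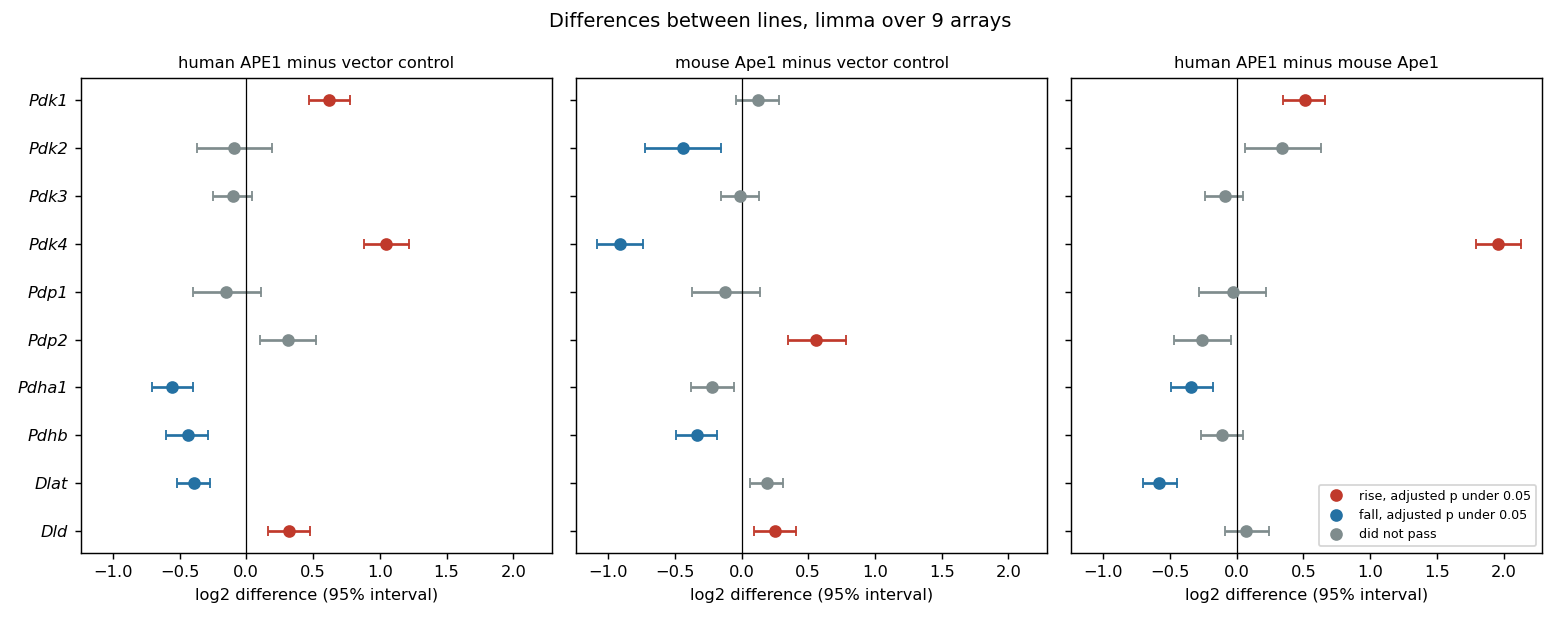
Log2 difference of each of the 10 genes in the 3 comparisons, with its 95% interval as a bar, red for a rise and blue for a fall at a limma adjusted p under 0.05, and grey where it did not pass. Pdk4 stands apart with 1.05 for human APE1 minus vector control, −0.91 for mouse Ape1 minus vector control and 1.96 for human APE1 minus mouse Ape1.

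Counted over the members, human APE1 differed from vector control in 6 of 10, with 3 rises (Pdk1, Pdk4 and Dld) and 3 falls (Pdha1, Pdhb and Dlat). Of all 41345 clusters, 11.8% passed in this comparison, 5.4% as rises and 6.35% as falls. All 10 members were brighter than the median cluster, and of the 13492 genes with that property 26.8% passed, 11.4% as rises and 15.4% as falls. In 7 members the 3 human APE1 values did not overlap with those of vector control, as for 26.7% of all clusters. Shares without overlap, here and below, are over all clusters, dim ones included, and were not taken over the brighter genes. By role, 2 of 4 kinases rose and 0 fell, neither phosphatase passed, and 1 of 4 subunits rose and 3 fell. The median difference of the members was −0.10, beside 0.02 over all clusters.

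Mouse Ape1 differed from vector control in 5 of 10 members, with 2 rises (Pdp2 and Dld) and 3 falls (Pdk2, Pdk4 and Pdhb). Over all clusters 16.2% passed, 9.09% as rises and 7.07% as falls, and over the brighter genes 33.1%, 16.5% and 16.7%. In 9 members the values of the groups did not overlap, as for 33.1% of all clusters. The count fell to 2 without mouse Ape1 replicate 1, and to 3 without vector control replicate 2 or 3, without human APE1 replicate 1 or 2, or without mouse Ape1 replicate 2 or 3. It was also 3 in a fit of the 2 lines alone, and the members' median was −0.06.

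Human APE1 differed from mouse Ape1 in 4 of 10 members, with 2 rises (Pdk1 and Pdk4) and 2 falls (Pdha1 and Dlat). The background was 12.4% of all clusters, 4.91% as rises and 7.5% as falls, and 28.2%, 12.2% and 16% of the brighter genes. Groups did not overlap in 7 members, as for 28.7% of all clusters. Over all 3 lines, the F-test passed for 7 of 10 members, against 20.4% of all clusters and 44.1% of the brighter genes. The 3 that did not pass were Pdk2, Pdk3 and Pdp1. Because the 2 comparisons with vector control share its 3 arrays, their values are given side by side and not set against each other.

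The expressed genes of some chromosomes differed on balance between the lines, and 3 members lie on chromosomes 12 and X. Chromosome 12 had the median farthest from 0 for mouse Ape1 minus vector control, and X in the other 2 comparisons. The median of 479 expressed genes of chromosome 12 was 0.07 for human APE1 minus vector control, 0.36 for mouse Ape1 minus vector control and −0.24 for human APE1 minus mouse Ape1, and 50.1%, 65.6% and 53.2% of them passed. Dld lies on this chromosome, and its mouse Ape1 difference of 0.25 exceeded that of 41.8% of the chromosome's expressed genes. With the shift of each chromosome subtracted, a setting chosen after seeing the data, that difference was −0.08 (adjusted p = 0.459), while the human APE1 difference was 0.23 (adjusted p = 0.0372). The Dld difference of human APE1 from mouse Ape1, 0.07 before subtraction (limma, adjusted p = 0.612), was then called as a rise. Less the chromosome's median it was 0.31.

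On the X chromosome, the median of 424 expressed genes was −0.18, 0.11 and −0.29 in the same 3 comparisons. The Pdha1 difference between human APE1 and mouse Ape1, −0.34, lay above that of 46.9% of these genes, and it was −0.06 (adjusted p = 0.513) with the shift subtracted. Its fall in human APE1 against vector control was still called at −0.39 (adjusted p = 0.0017). In mouse Ape1 against vector control, Pdha1 was then called as a fall too, and its difference less the chromosome's median was −0.33. For Pdk3 the human APE1 minus mouse Ape1 difference changed sign to 0.18 (adjusted p = 0.0414). Pdk4 on chromosome 6, whose medians were −0.01, −0.07 and 0.06, kept differences of 1.06, −0.86 and 1.92, and its human APE1 minus mouse Ape1 difference exceeded that of 99.8% of the genes of its chromosome. Dlat lies on chromosome 9, where the median of 720 expressed genes was −0.18 for human APE1 minus mouse Ape1 and 47.6% of them passed. Its difference of −0.58 lay above that of 16% of these genes. The cause of the chromosome shifts was not tested.

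**Figure D3:**
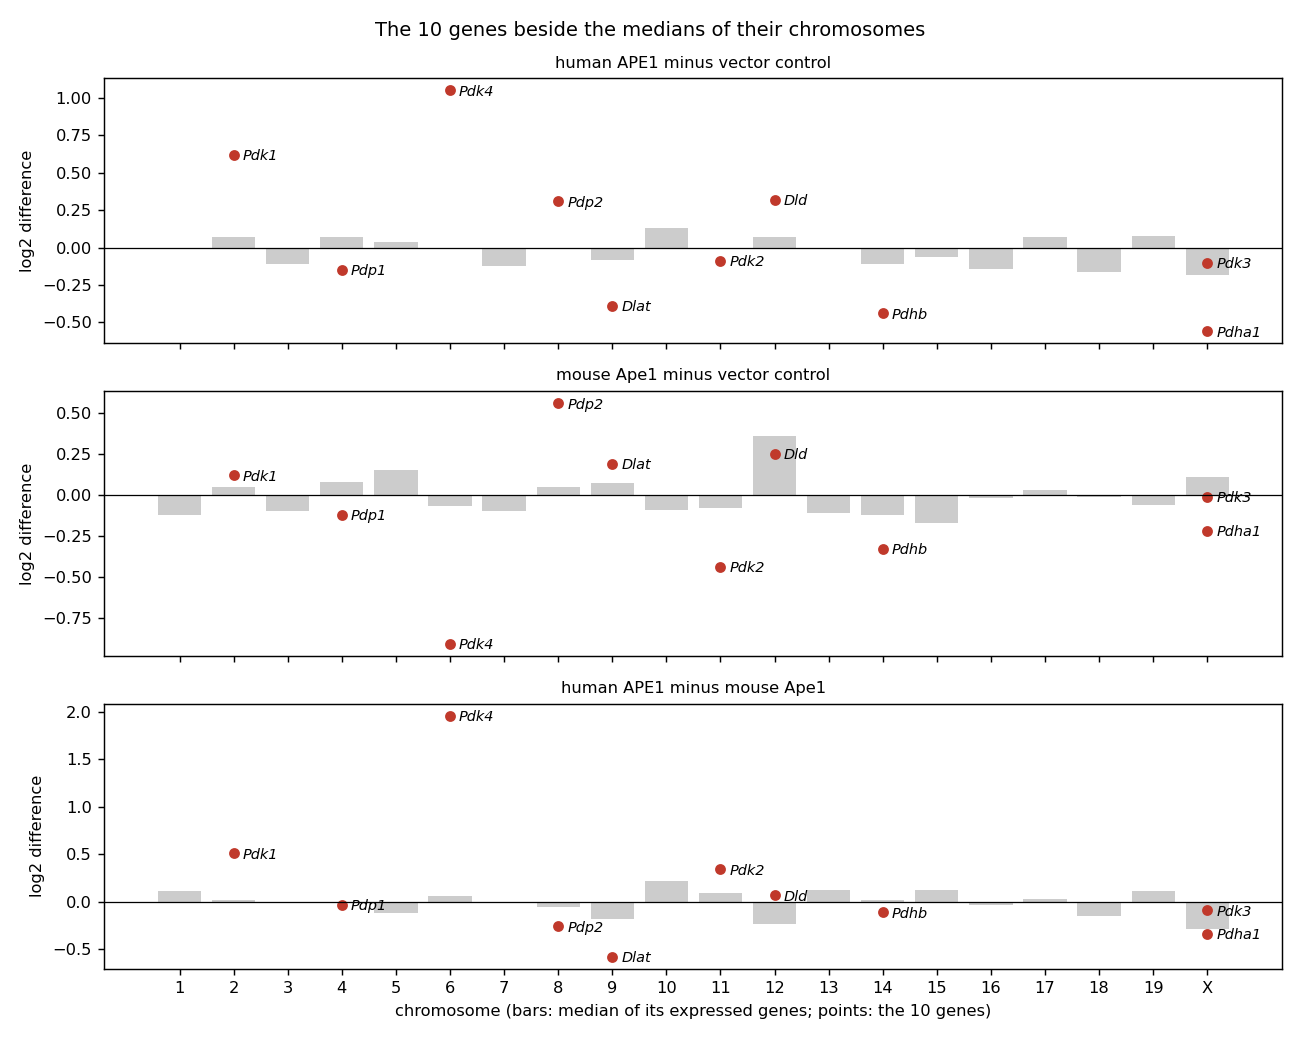
Median log2 difference of the expressed genes of each chromosome in the 3 comparisons (grey bars), with the 10 members as red points at their own chromosome and a vertical scale of its own in each panel. Chromosome 12 stands at 0.36 for mouse Ape1 minus vector control and X at −0.29 for human APE1 minus mouse Ape1, and in those panels Dld stands at 0.25 and Pdha1 at −0.34.

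Among the other genes of the complex, none passed against vector control. Of Pdhx, the anchor protein of the dehydrogenase subunit, Pdpr, the regulatory subunit of the phosphatase, and the testis form Pdha2, 0 of 3 passed against vector control in either line. Of the brighter genes, 26.8% passed there in human APE1 and 33.1% in mouse Ape1. Pdha2 averaged 3.29 in human APE1, 3.28 in mouse Ape1 and 3.58 in vector control, below the arrays' 25th percentiles of 4.27 to 4.36, so its result says little. Pdpr was lower in human APE1 than in mouse Ape1 by 0.43 (8.16 against 8.59, limma, adjusted p = 0.0272), a call that reached 0.0571 under another scaling. Pdhx differed by −0.09 and −0.01 in human APE1 and mouse Ape1 against vector control.

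Of 10 genes that supply or use pyruvate, 1 rose and 2 fell in human APE1 against vector control, and 3 rose and 1 fell in mouse Ape1. These shares are near the 26.8% and 33.1% of brighter genes that passed in these comparisons. The counts also moved with the scaling: human APE1 had 1 rise and 4 falls with the chromosome shift subtracted, and mouse Ape1 had 2 rises and 3 falls with quantile normalization run again and 1 of each with array medians subtracted. Gpt2, the mitochondrial enzyme that exchanges pyruvate with alanine, averaged 9.42 in mouse Ape1 and 8.42 in vector control, a rise of 1.00 (limma, adjusted p = 2.79e-05), with 8.21 in human APE1. Mpc2, a subunit of the carrier that takes pyruvate into mitochondria, fell in mouse Ape1 by 0.46 against vector control (adjusted p = 0.00367). In human APE1, Ldhb rose by 0.56 (adjusted p = 0.00765), while Ldha fell by 0.31 and Me1 fell by 0.30, both lost under another scaling (adjusted p up to 0.124 and 0.158). Ldha and Ldhb encode the lactate dehydrogenase subunits, and Me1 malic enzyme.

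In the citric acid cycle, which receives the acetyl-CoA, 2 of 16 genes rose and 4 fell in human APE1 against vector control, with a median of −0.10, beside 11.4% and 15.4% of the brighter genes. In mouse Ape1, 5 rose and 2 fell, or 2 and 3 with array medians subtracted, beside 16.5% and 16.7% of the brighter genes. Cs, citrate synthase, averaged 12.36 in human APE1 and 11.92 in vector control, a rise of 0.44 (limma, adjusted p = 0.00141). Fh1, fumarase, fell in both lines, by 0.46 and 0.65 against vector control (adjusted p = 0.00215 and 0.000275). Between the lines, 4 rose and 5 fell in human APE1 against mouse Ape1, beside 12.2% and 16% of the brighter genes. Among the falls were Dlst by 0.67, Idh3a by 0.64 and Idh3g by 0.61, the last lost with chromosome medians subtracted (limma, adjusted p = 0.152). The differences of Cs, 0.20, and Mdh2, −0.25, were also lost under another scaling (limma, adjusted p up to 0.869 and 0.832).

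Sister complexes use the same Dld subunit. Of 11 genes of the oxoglutarate, branched-chain and glycine systems and their regulators, 2 rose and 3 fell in human APE1 against vector control, 3 rose and 1 fell in mouse Ape1, and 1 rose and 3 fell between the lines. Of the brighter genes, 26.8%, 33.1% and 28.2% passed in these comparisons. Dhtkd1, an oxoadipate dehydrogenase, averaged 7.01 in human APE1, 6.64 in mouse Ape1 and 5.67 in vector control, rises of 1.34 and 0.97 (limma, adjusted p = 0.0032 and 0.0106). Bckdhb, of the branched-chain complex, averaged 6.70 in human APE1, 7.79 in mouse Ape1 and 7.33 in vector control. It fell in human APE1 by 0.63 and rose in mouse Ape1 by 0.46 (adjusted p = 0.00495 and 0.0158).

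Of 13 genes listed as PPAR and FOXO targets, 7 fell and 0 rose in mouse Ape1 against vector control. Pdk4 also fell there, and a link between Pdk4 and these genes was not tested. This list, like the others, was chosen with earlier results of these data known. The list had a median of −0.23, and 16.7% of the brighter genes fell there and 16.5% rose. Under other scalings 6 to 8 fell and 0 rose. Txnip, an inhibitor of thioredoxin and glucose uptake, averaged 8.58 in mouse Ape1 and 9.77 in vector control, a fall of 1.19 (limma, adjusted p = 0.0001). Angptl4, a secreted inhibitor of lipoprotein lipase, fell by 0.97 (9.53 in mouse Ape1, 10.50 in vector control), and Cpt1a, which admits fatty acids to mitochondria, fell by 0.76 (9.04 and 9.80).

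In human APE1 the same list had 0 rises and 1 fall against vector control, with a median of −0.03, and 3 rises and 1 fall with chromosome medians subtracted. Txnip averaged 9.84, Angptl4 10.21 and Cpt1a 9.78 there, beside 9.77, 10.50 and 9.80 in vector control. Against mouse Ape1, where 12.2% of the brighter genes rose and 16% fell, 6 of 13 rose in human APE1 and 0 fell, with a median of 0.18 and 6 to 7 rises under other scalings. The lists are described by counts and medians only.

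Of 12 factors known to act on the kinase genes, 2 rose and 3 fell in human APE1 against vector control, where 26.8% of the brighter genes and 11.8% of all clusters passed. In mouse Ape1, 3 rose and 5 fell, where 33.1% and 16.2% passed. Ppargc1a, a coactivator of mitochondrial genes, averaged 7.85 in human APE1, 8.62 in mouse Ape1 and 6.63 in vector control, rises of 1.22 and 1.99 (limma, adjusted p = 0.000311 and 2.14e-05). Foxo1 averaged 7.90, 7.44 and 8.40, falls of 0.50 and 0.96 (adjusted p = 0.00594 and 0.000196). Pparg fell by 0.40 and 0.81 in the same order of lines (adjusted p = 0.0405 and 0.00138), and Foxo3 was 0.54 higher in human APE1 than in mouse Ape1. Hif1a averaged 9.64 in human APE1, 9.82 in mouse Ape1 and 9.39 in vector control, and its mouse Ape1 difference of 0.44 was 0.04 with chromosome medians subtracted (adjusted p = 0.603).

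**Figure D4:**
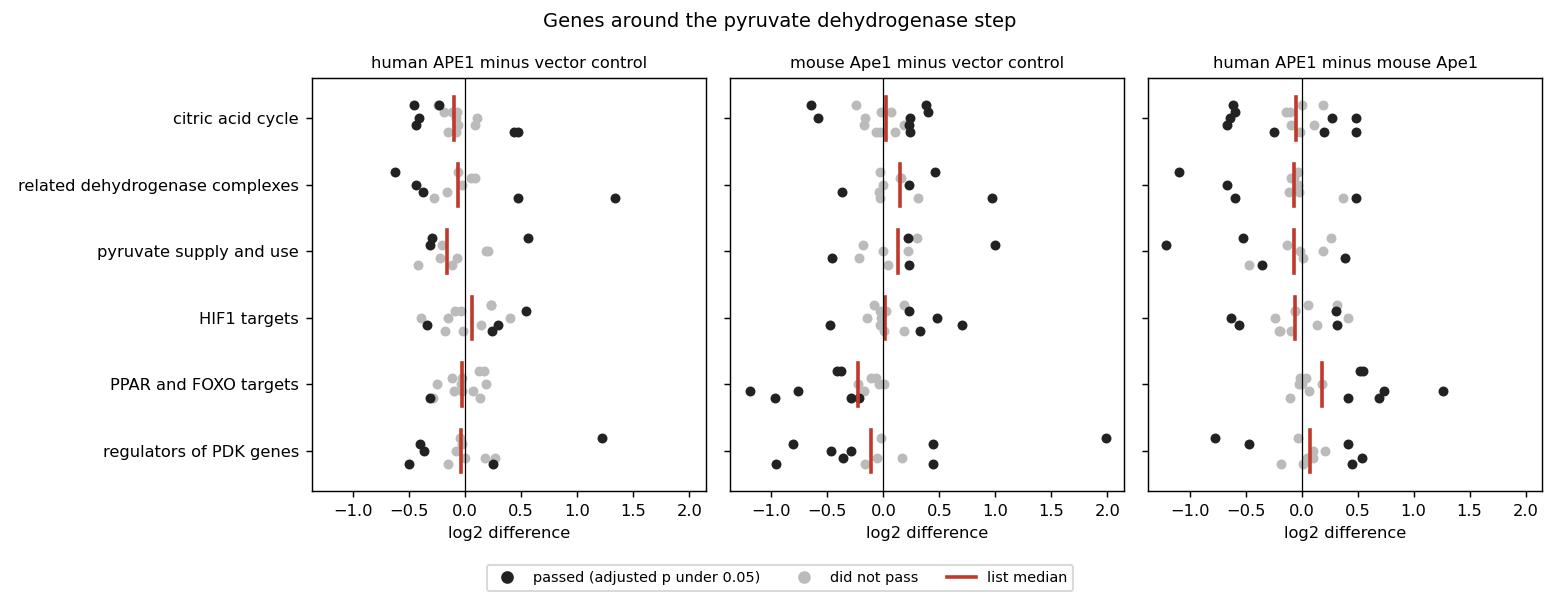
Log2 difference of each gene of 6 lists in the 3 comparisons, black where limma's adjusted p was under 0.05 and grey where it was not, with a red line at the list's median. The 13 PPAR and FOXO targets had 7 falls and 0 rises in mouse Ape1 against vector control, and 0 rises and 1 fall in human APE1 against vector control.

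The genes most like a member were found for the 3 members with the widest range of group means, Pdk4 (1.96), Pdk1 (0.62) and Dlat (0.58), by Pearson's r over the 9 arrays among 2897 genes. Since arrays of 1 line resemble each other, these values mainly describe 3 levels and are given as a description. Among those nearest to Pdk4 were Map2k7 (r = 0.994) and Thoc5 (0.994), and Thoc5 averaged 10.12 in human APE1, 9.38 in mouse Ape1 and 9.68 in vector control. Nearest to Pdk1 were Arhgap18 (0.995), Dnajc14 (0.988) and Nup107 (0.982), and all 3 lie on chromosome 10, while Pdk1 lies on chromosome 2. The median of the expressed genes of chromosome 10 was 0.13 for human APE1 minus vector control and 0.22 for human APE1 minus mouse Ape1. The part of that shift in the likeness was not tested. Nearest to Dlat were Pcdh18 (0.993), Bnip2 (0.993) and Cacna2d1 (0.992), of which Bnip2 lies on chromosome 9 as Dlat does.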

How the data were processed

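Per the labels, the deposited array values are log2 RMA values made with Expression Console as a core-exon analysis. Partek, with no version, is listed in the submitters' processing notes. RMA forces a common distribution on the arrays, which hides a shift of most genes and shrinks differences of dim ones. The authors also deposited group means (log2), linear ratios and unadjusted p-values, per the file headers. The sources used here do not give the array design or genome build. Apex1 is not analysed here.

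Array values were used as deposited. All 41345 transcript clusters were fitted in R 4.3.3 with limma 3.58.1 (3 group means, 9 arrays, two-sided, 6 residual and 2.067 prior degrees of freedom). P-values were adjusted by Benjamini-Hochberg within each comparison. The words rise and fall mean an adjusted p under 0.05. The number of arrays limits the precision. The scripts were tested on simulated data, and figures used Python 3.11.15. Chromosomes and promoters came from RefSeq tables of GRCm38.p6.

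The members and gene lists were chosen with earlier results of these data known. Named genes were the 10 members, up to 3 genes per list and comparison that passed, taken by size, and the 3 genes most like each of the 3 members of widest range (range of group means at least 0.5); some of these are not reported here. Genes outside that rule, such as Pdhx, Ptprc, Lum, Postn and Hif1a, were chosen after their values were seen. Replicate numbers did not pair arrays (correlations of −0.09 to 0.13 over 9 same-numbered pairs). Alternatives changed the scaling, dim filter, variance model, replicate block, arrays fitted, cluster per gene and source of values.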

Additional observations from a re-analysis of the deposited data

Results flagged for a closer look

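For 4 members the effect of human APE1 against vector control differed from that of mouse Ape1 against vector control by limma's test of the difference itself, which equals the direct comparison of the lines. Both effects share the vector control arrays. The difference for Pdk4 was 1.96 (limma, adjusted p = 5.37e-06), made of 1.05 in human APE1 and −0.91 in mouse Ape1. For Pdk1 it was 0.51 (adjusted p = 0.00205), from 0.62 and 0.12. For Dlat it was −0.58 (adjusted p = 0.000374), from −0.39 and 0.19. The Pdha1 difference was −0.34 (adjusted p = 0.0144), from −0.56 and −0.22, beside a median of −0.29 over the expressed genes of the X chromosome. In all 4, the 3 human APE1 arrays lay on one side of the 3 mouse Ape1 arrays, as for 28.7% of all clusters. These members were picked by their adjusted p in this same comparison, so that separation is no further support.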

How the results depend on the processing

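The 3 differences of Pdk4, the human APE1 differences of Pdk1, Pdha1, Pdhb and Dlat from vector control, the mouse Ape1 difference of Pdp2, and the human APE1 minus mouse Ape1 differences of Pdk1 and Dlat kept direction and call in every alternative run. Leaving out 1 array at a time, 242 of the results on 30 member differences kept both, 23 lost the call, 1 gained it and 4 changed sign. In the other 10 alternatives these numbers were 264, 14, 13 and 9. Clusters called with 1 array left out numbered 3185 to 4776 for human APE1 (4859 with all arrays; 3185 without human APE1 replicate 1, 3203 without replicate 2), 4433 to 6772 for mouse Ape1 (6681 with all; 4433 without mouse Ape1 replicate 1), 3691 to 4892 between the lines and 6438 to 8243 for the F-test. Members called numbered 5 to 7, 2 to 4, 3 to 4 and 6 to 7.

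With the replicate number as a block, 3 members were called in mouse Ape1 in place of 5, with Pdk2 at −0.44 (limma, adjusted p = 0.0568) and Dld at 0.25 (0.0786), and 3 in a fit of only the 2 lines. Signs changed as follows, and for small differences the cause was not tested. With chromosome medians subtracted, Pdk3 in human APE1 was 0.21 (0.06 with the chromosome shift subtracted), Pdk3 between the lines 0.38 (0.18), Dld in mouse Ape1 −0.15 (−0.08), Pdha1 between the lines 0.14 and Pdp1 between the lines 0.05. Pdp1 was 0.04 with quantile normalization run again. With 1 array left out, Pdk2 in human APE1 ran from −0.20 to 0.00, Pdk3 in mouse Ape1 from −0.04 to 0.02 and Pdp1 between the lines from −0.13 to 0.09. The calls gained included Pdha1 in mouse Ape1 in several settings, with limma's adjusted p at 0.0286 to 0.0441 in 3 of them. They also included Dlat in mouse Ape1 with dim clusters left out (0.0321) or a variance trend (0.0169). Pdp2 in human APE1 against vector control ran from 0.0416 to 0.191 in limma's adjusted p with 1 array left out. With chromosome medians or the chromosome shift subtracted, 1 of 2 phosphatases rose in that comparison. With chromosome medians subtracted, 3 of 4 kinases rose in human APE1 against vector control and against mouse Ape1, in place of 2. The precision is limited by 3 arrays a line.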

Other observations

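Of 14 measured HIF1 targets, 3 rose and 1 fell in human APE1 against vector control, with a median of 0.06, where 26.8% of the brighter genes passed. With array medians subtracted 1 rose and 1 fell, with chromosome medians subtracted 2 and 2, and with the chromosome shift subtracted 1 and 2. Kdm3a, a histone demethylase, averaged 9.67 in human APE1 and 9.13 in vector control, a rise of 0.54 (limma, adjusted p = 0.000689). In mouse Ape1, where Pdk1 did not pass limma's test, 4 rose and 1 fell, with a median of 0.01. Of the brighter genes, 33.1% passed there. A link between Pdk1 and these targets was not tested. Slc2a1, the glucose transporter GLUT1, averaged 10.81 in mouse Ape1 and 10.11 in vector control, a rise of 0.70 (adjusted p = 0.000107), and P4ha2, a collagen prolyl hydroxylase, fell by 0.48 (adjusted p = 0.00348).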
